A study of Mus musculus with 13 samples.

Results

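The regions described here are 1525 of the 41905 autosomal genome regions that the authors listed as differing in 5-hydroxymethylcytosine (5hmC) between operated and sham-operated knees of wild-type mice. A region was taken when its mean level in the sham libraries was 20 or more normalized counts, its mean level after surgery was lower, and it shared no base with any region that the authors listed for mutant against wild-type knees after surgery. Of the 3288 autosomal regions with a sham mean of 20 or more, 1525 met all these conditions, 1057 were lower after surgery but listed in the mutant comparison, and 706 were higher after surgery. The members were thus chosen by their sham and DMM levels in that comparison, and these levels are given as descriptions without a test.

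The study measured 5hmC in DNA from knee cartilage of male B6;129S4 mice 6 weeks after surgery. Operated knees had destabilisation of the medial meniscus (DMM), a surgical model of osteoarthritis in which, per the labels' protocols, the medial meniscus was taken out. In sham knees the joint was opened and nothing more was done, and each control knee was the opposite leg of an operated mouse. The wild type carries the genotype TET1+/+ in the labels, and the mutant (MUT) is labelled TET-/-. The mice were 3 to 4 months old at surgery by the design text and 4 to 6 by the protocol. Values used here came from 3 wild-type DMM libraries, 3 wild-type sham libraries and 2 distinct MUT DMM libraries, since one of the 3 deposited MUT DMM entries repeats another value for value. The labels call the 3 libraries of a group biological replicates, without saying which mouse each came from. Whole cartilage was dissected, so a change in the mixture of cells and a change of the mark within a cell cannot be told apart.

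TET enzymes oxidise 5-methylcytosine to 5hmC, a base that is both a step in the removal of DNA methylation and a stable mark of its own. In many tissues 5hmC lies along the bodies of active genes and at enhancers, and it is usually low at the starts of strongly expressed genes. The assay, reduced representation hydroxymethylation profiling, cuts DNA with the enzyme MspI at CCGG, attaches adapters, adds glucose to 5hmC, and cuts again: only sites protected by the glucose keep their adapter and are sequenced, so a count at a CCGG site rises with 5hmC there.

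The sequences below show what the assay reads at members that lay at or just before a gene's start. All come from RefSeq (GRCm38.p6, which has the mm10 coordinates of the files), run 5′ to 3′ on the strand given, and have each CCGG in capitals. The first pair carried large falls that did not rest on any 1 library. The third lay in the member with the highest sham level. The last pair, chosen after the values were seen, show a member whose deeper DMM libraries lay on either side of sham and a member read almost only in 1 sham library.
Mrpl27 and Eme1, between their starts, chr11:94653744-94653790, + strand: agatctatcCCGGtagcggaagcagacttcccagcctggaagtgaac
Trappc12, before its start, chr12:28750401-28750560, - strand: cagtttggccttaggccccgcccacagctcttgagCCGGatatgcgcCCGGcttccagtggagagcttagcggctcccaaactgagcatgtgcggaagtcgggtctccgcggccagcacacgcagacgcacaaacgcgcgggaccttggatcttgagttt
Gm40237, before its first start, chr4:118546889-118547138, + strand: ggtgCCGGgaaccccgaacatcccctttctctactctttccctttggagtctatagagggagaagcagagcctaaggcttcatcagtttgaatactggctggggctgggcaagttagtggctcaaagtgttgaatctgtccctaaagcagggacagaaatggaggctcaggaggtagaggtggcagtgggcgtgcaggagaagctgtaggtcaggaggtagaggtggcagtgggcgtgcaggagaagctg
Xpo1, before its start, chr11:23255881-23256040, + strand: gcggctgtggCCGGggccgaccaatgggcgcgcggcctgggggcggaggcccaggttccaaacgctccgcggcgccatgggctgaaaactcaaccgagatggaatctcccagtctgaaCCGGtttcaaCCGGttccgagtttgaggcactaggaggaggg
Foxo1, before its start, chr3:52268121-52268320, + strand: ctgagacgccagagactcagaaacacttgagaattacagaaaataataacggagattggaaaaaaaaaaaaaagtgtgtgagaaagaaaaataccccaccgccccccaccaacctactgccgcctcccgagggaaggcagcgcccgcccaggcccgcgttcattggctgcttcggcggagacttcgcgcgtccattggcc

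The stretch between Mrpl27, which encodes a protein of the mitochondrial ribosome, and Eme1, which encodes a DNA repair endonuclease subunit, holds 1 CCGG. The member reaches beyond it, and its 70 bases before the Mrpl27 start (chr11:94653721-94653790) hold 2. The Trappc12 stretch holds 2 and the Xpo1 stretch 3. The Foxo1 stretch holds none, although it spans the whole 200 bases of the member. The Gm40237 stretch is the edge of a tandem repeat: the run agtgggcgtgcaggagaagc occurred 2 times in it, and 6 times, spaced 44 bases apart, in the 250 bases before the second start annotated for that gene. Over all promoters, 47.8% of 31396 windows of 250 bases before a gene start held CCGG on either strand (the motif reads the same on both), against the windows of 41 of the 46 members at a gene start (89.1%). The share was 91.8% for the lower regions at a start that were listed in the mutant comparison and 65.3% for all autosomal regions at a start, so the members lay near the other lower regions in it. A region that the assay can read should lie near a CCGG site, so that share describes the assay as well as the members.

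The libraries differed in depth by far more than the groups did, and this bears on every value below. The deposited levels are whole reads multiplied by a factor of each library. In the order in which the files list them, 1 read is worth 15.7, 1.33 and 1.04 normalized counts in the DMM libraries and 0.32, 0.715 and 0.171 in the sham libraries. The first-listed DMM library holds 4726 reads over all listed regions, against 436852 to 2187392 in the other libraries. A 0 in that library allows a level of up to 47.0 normalized counts (3 reads, for counting error only). It was at 0 in 1378 of the 1525 members (90.4%), and in 478 of these the sham mean itself was at or below 47.0. Among all autosomal regions, most of which had a sham mean under 20, it was at 0 in 96.2%. At a sham mean of 20 or more it was at 0 in 52.5% of the higher regions. The share was 51.1% of the lower regions listed in the mutant comparison. The DMM mean used by the rule includes this library, so the rule itself bears on the members' share. The median member had a sham mean of 57.6, worth 3.68 reads of that library.

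Across the members the median level in the DMM libraries, in listed order, was 0, 54.7 and 38.53 normalized counts, and in the sham libraries 66.31, 55.08 and 57.25. The first-listed DMM library was the low one, and the second-listed one lay at the level of the sham libraries. The DMM mean had a median of 32.3 and the sham mean of 57.6. The median log2 fold change of the means was -0.78. Without the first-listed DMM library it was -0.21, and 1364 of 1525 members (89.4%) were still lower while 161 were not. An adjusted p under 0.05 in the authors' deposited table was held by 1510 members (99.0%) and by 99.7% of all autosomal regions, in either direction. Members are lower by the rule, and 6.19% of all autosomal regions were both past that threshold and lower. All DMM libraries lay below all sham libraries at 232 members (15.2%), a pattern found at 1.55% of all autosomal regions. Without the first-listed DMM library the number was 266 (17.4%), against 1.84%. The rule used this contrast, so nothing is read from these counts.

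The second- and third-listed DMM libraries often disagreed with each other. The second lay above every sham library at 568 members and below every one at 631, and the third lay above at 190 and below at 981. At 529 members the second was above all sham libraries and the third below all of them, and at 163 the reverse held. The members were therefore separated, after their values had been seen, into 3 read patterns that say where a lower mean came from. In 249 members over 80% of the summed sham level came from 1 library. In 240 of the others the second- and third-listed DMM libraries both lay below all sham libraries. The remaining 1036 met neither condition.

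**Figure D1:**
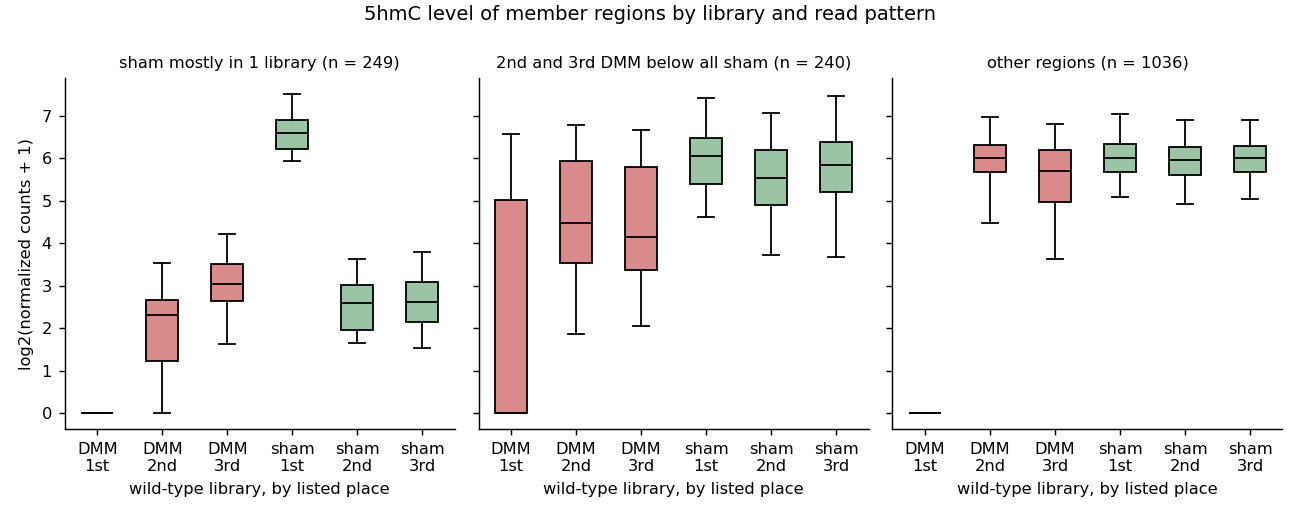
Level of the member regions in each wild-type library, as log2(normalized counts + 1), for the 3 read patterns; boxes span the quartiles with the median as a line, and whiskers the 5th to 95th percentile. In the left panel only the first-listed sham library is high, in the middle panel the second- and third-listed DMM libraries lie below the sham libraries, and in the right panel the first-listed DMM library has a median of 0 and the third-listed one a median of 51.0, below the sham medians of 60.8 to 62.8.

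**Figure D2:**
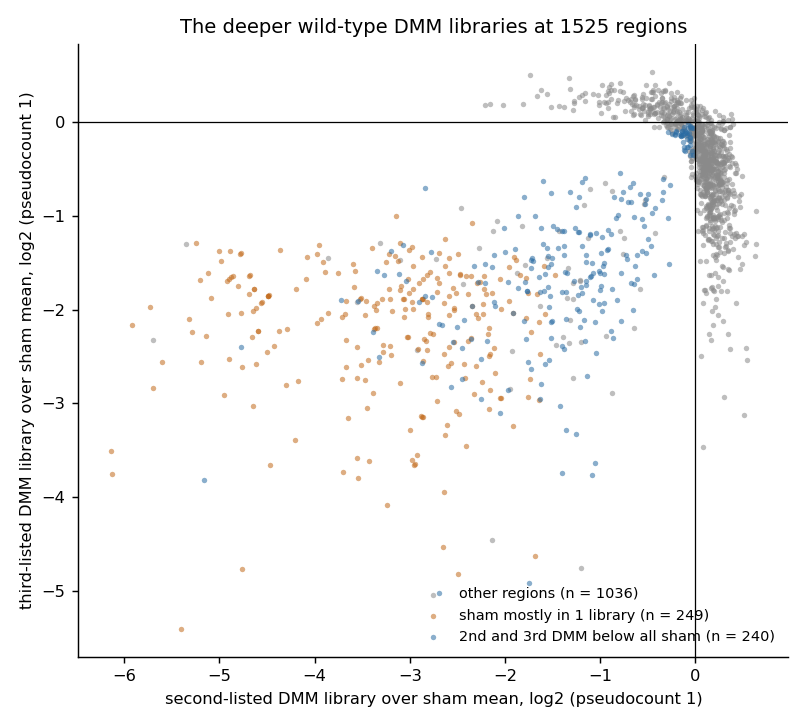
Log2 ratio of the second-listed (x axis) and the third-listed (y axis) DMM library to the sham mean at each of the 1525 members, with a pseudocount of 1 normalized count. Points of the 240 regions with both libraries below all sham libraries lie to the lower left of the origin, and most of the 1036 other regions lie along an arc where one library is near or above the sham mean and the other is lower.

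At the 240 members of the middle pattern both deeper DMM libraries were below sham. Without the near-empty library the DMM mean was still lower at all 240, as it was at all 249 of the first pattern and at 875 of the 1036 others. The medians of the 240 were 21.34 and 16.66 normalized counts in the second- and third-listed DMM libraries and 64.7, 45.4 and 56.4 in the sham libraries. The mean of those DMM libraries was below the sham mean by a median of 2.62-fold (quartiles 1.74 and 3.70), and by at least 2-fold at 166 regions. The first-listed DMM library held at least 1 read at 117 of the 240 and was also below all sham libraries at 84 of these 117. Some sat only just below sham. Foxa3, a forkhead transcription factor gene best known from liver, had 86.71 and 78.09 normalized counts in those DMM libraries against 90.01, 91.56 and 89.37 in sham.

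Among genes of signalling pathways, the clearest separation with reads in all 6 libraries was at Dtx2, which encodes an E3 ubiquitin ligase of the Notch pathway. The region at chr5:136032261-136032500 had 15.68, 17.34 and 14.58 normalized counts after DMM and 41.64, 46.5 and 50.92 in sham. All 3 DMM values lay below all 3 sham values, and the means were 15.9 ± 1.39 (SD, n = 3) and 46.3 ± 4.64 (SD, n = 3), a 2.92-fold difference. They rested on 1, 13 and 14 reads after DMM, against 130, 65 and 298 in sham.

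Ulk1, which encodes the kinase that starts autophagy and is held in check by mTOR, had the smallest region p of all members in the authors' deposited table (3.27e-09, adjusted p = 0.000264, a value shared with several other members). Its region at chr5:110789961-110790280 had 31.35, 13.34 and 7.29 normalized counts after DMM and 42.28, 35.05 and 42.38 in sham. Every DMM library was below every sham library, with means of 17.3 ± 12.5 and 39.9 ± 4.20 (SD, n = 3 each). The highest DMM value, in the first-listed library, was 2 reads.

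Of all protein-coding autosomal genes, 0.624% held a member of this pattern, and of 20 endothelial marker genes 2 did, Mmrn2 and Cdh5. The 4 other endothelial genes with a member, Eng, Flt1, Pecam1 and Vwf, did not have it. At Eng, a TGF-beta co-receptor gene, the DMM levels were 0, 78.71 and 98.92 normalized counts against 87.45, 96.57 and 96.21 in sham. Mmrn2, which encodes an extracellular protein of vessel walls, had 31.35, 20.01 and 12.5 normalized counts after DMM against 54.78, 40.77 and 45.11 in sham. Cdh5, which encodes VE-cadherin, the adhesion protein of endothelial junctions, had 0, 2.67 and 9.37 against 41.32, 17.88 and 33.15. The groups did not overlap at either region, and the mean of the second- and third-listed DMM libraries was 2.88-fold and 5.11-fold below sham.

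Of 34 matrix proteases and inhibitors 2 held a member of this pattern, and of 31 hypertrophy and mineralisation genes 1 did, Mef2d. The 4 other hypertrophy genes with a member, Fgfr3, Ptch1, Runx1 and Runx3, did not have it. Adamts12 encodes a secreted metalloprotease that cleaves cartilage oligomeric matrix protein, and Adamts14 one that trims procollagen. The Adamts12 region had 125.4, 118.73 and 67.68 normalized counts after DMM and 170.42, 134.48 and 242.49 in sham. The Adamts14 region had 31.35, 18.68 and 12.5 against 38.76, 30.04 and 43.06. At Adamts12 all DMM values lay below all sham values. At Adamts14 the first-listed DMM library, at 2 reads, was above the lowest sham library. Mef2d encodes a transcription factor of the family that drives chondrocyte hypertrophy, and its region lay 29 bases from the gene's start. It had 31.35, 18.68 and 12.5 normalized counts after DMM and 26.91, 37.2 and 59.13 in sham, so the first-listed DMM library, at 2 reads, lay above the lowest sham library. When each library was scaled by its recovered reads in place of the authors' factors, the few reads of the near-empty library weighed most, and the group means at Ulk1, Mmrn2, Adamts12, Adamts14 and Mef2d turned higher after DMM (log2 0.45 to 0.76). At Dtx2 the mean stayed lower, at -0.42.

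At gene starts, 13 of the 240 lay in the stretch from 250 bases before to 50 after a start. This was 5.56% of the 234 with start annotation. The share was 4.44% for the same pattern in the lower regions listed in the mutant comparison, and 0.920% of all autosomal regions. The shared start of Mrpl27 and Eme1 (chr11:94653721-94653920, sequence above) had 0, 4.0 and 2.08 normalized counts after DMM and 17.3, 26.47 and 24.61 in sham. The start of Trappc12 (chr12:28750361-28750560), which encodes a subunit of a vesicle tethering complex, had 0, 5.34 and 2.08 against 6.73, 39.34 and 30.08. Both had 2 to 4 reads in the deeper DMM libraries. Without the first-listed library the levels were 7.50-fold below sham at Mrpl27 and Eme1 and 6.84-fold at Trappc12. The start of Rap1gap, whose product switches off the small GTPase Rap1, had 0, 29.35 and 19.78 against 45.17, 66.53 and 87.5. Psmb3, a proteasome subunit gene, had 0, 13.34 and 19.78 against 102.51, 27.9 and 26.15, so there the first-listed sham library stood well above the other sham libraries. The values at Gm35240 were closer, at 78.38, 65.37 and 57.27 after DMM and 103.47, 92.99 and 98.77 in sham, with all DMM values below all sham values. These gene-start members were chosen for mention after their values were seen, except the Mrpl27 and Eme1, Trappc12 and Mef2d regions.

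Of the 7 genes with 3 or more members, Ahnak2, a very large scaffold protein gene, was the one with every member in this pattern: all 4, between chr12:112775901 and chr12:112783540. The third of them, at chr12:112778401-112778860, had 15.68, 48.03 and 51.02 normalized counts after DMM and 93.54, 130.19 and 281.28 in sham. Its means were 38.2 ± 19.6 and 168 ± 99.5 (SD, n = 3 each). The other Ahnak2 regions were 3.76-fold, 3.10-fold and 5.06-fold below sham without the first-listed library. At the first of these, chr12:112775901, that library had 31.35 normalized counts (2 reads). This was above the sham levels of 24.99 and 23.61 and below the third, 72.97, so the groups overlapped there. Members so close together may share fragments and are not independent. At the immunoglobulin heavy chain locus, Igh, which is cut and rejoined in B cells, 4 of 6 members had this pattern, the lowest at chr12:113919721-113920100 with 0, 4.0 and 5.21 normalized counts against 48.37, 18.6 and 40.16. The segments of that locus resemble each other, so reads there may be split between copies. Cpne5, a gene of a calcium-dependent membrane-binding protein, had 2 of 3. Its region 10 bases from the start had 31.35, 32.02 and 16.66 against 45.49, 61.52 and 71.43, with no overlap between groups. Scaled by recovered reads, the mean turned higher after DMM at 2 of the Ahnak2, 1 of the Igh and both of these Cpne5 regions (log2 0.15 to 0.74).

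The largest fall by the ratio of means, among members with at least 20 reads in every sham library, was outside any RefSeq gene. Falls were ranked after the pseudocount stated above had been added to each mean. The region at chr18:15981101-15981480 had 0, 2.67 and 8.33 normalized counts after DMM and 89.69, 87.99 and 213.44 in sham. It was close to unread in every DMM library and well read in every sham library (280, 123 and 1249 reads). The means were 3.67 ± 4.25 and 130 ± 71.9 (SD, n = 3 each), and without the first-listed library the fall was 23.7-fold. The next members by this measure were chr2:154901681-154902060, where the third sham library (4.27 normalized counts) was as low as the third DMM library (4.17), then the tandem-repeat region at Gm40237 and the Igh region named above. The others among the 8 largest were Mrpl27 and Eme1, Trappc12, Gm28722 and chr6:59883421-59883640.

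**Figure D3:**
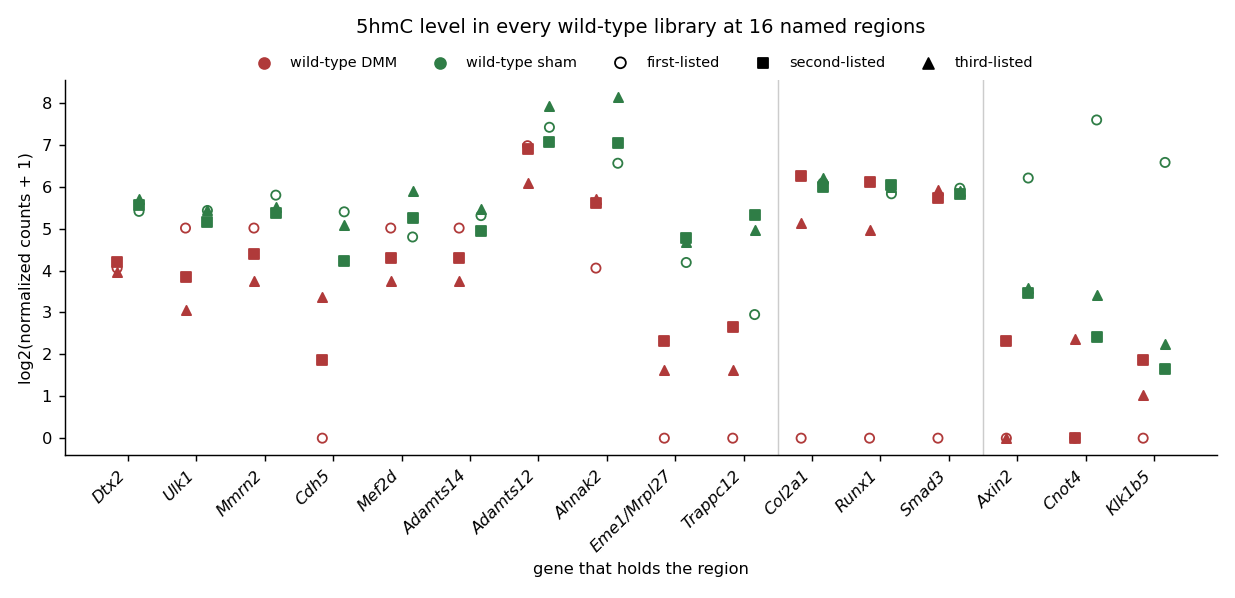
Level in each of the 6 wild-type libraries, as log2(normalized counts + 1), at 16 named regions; red marks DMM, green sham, and the marker shape gives the listed place of the library. At the 10 regions on the left the second- and third-listed DMM libraries lie below every sham library, at the next 3 the first-listed DMM library is at 0 and the others lie near or on either side of the sham levels, and at the last 3 the first-listed sham library is far above the others.

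The 249 members read mostly in 1 sham library looked different. That library was the first-listed one in 248. Median levels were 95.1, 5.01 and 5.13 normalized counts in the sham libraries and 0, 4.0 and 7.29 in the DMM libraries, so outside 1 library the sham and DMM levels were alike and low. With the first-listed sham library left out, the DMM mean was lower at 198 and not lower at 51. Setting the second- and third-listed libraries of each group side by side, the DMM mean was at or above the sham mean at 132 of the 249. The number of members with this pattern was 301 at a share of over 70% and 140 at over 90%.

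Several members with the smallest adjusted p of the authors' deposited table had this pattern. Cnot4, which encodes a ubiquitin ligase of the deadenylase complex, had 0, 0 and 4.17 normalized counts after DMM and 192.52, 4.29 and 9.74 in sham. Klk1b5, a kallikrein gene, had 0, 2.67 and 1.04 against 94.82, 2.15 and 3.76. The regions at chr13:29859361-29859800 and chr14:83272621-83273060, both outside genes, had no read in any DMM library, with sham levels of 115.32, 5.01 and 3.59 at the first and 68.55, 5.72 and 4.44 at the second. They were the 2 members at 0 in all DMM libraries. Axin2, the negative-feedback scaffold of Wnt signalling, was nearly of this kind at 0, 4.0 and 0 against 73.04, 10.01 and 10.94: its sham levels fell short of the 80% share, and the groups did not overlap. The Foxo1 stretch printed above had 0, 0 and 7.29 against 70.79, 5.72 and 4.27. The Hippo pathway gene Yap1, a transcriptional coactivator, had 0, 0 and 5.21 against 64.07, 2.86 and 5.13, and Wwc1, an upstream regulator of the same pathway, had 0, 5.34 and 11.45 against 103.79, 4.29 and 3.08. At Cnot4, Klk1b5, Foxo1, Yap1 and Wwc1 the first-listed sham library was far above the others. Without it the log2 change was still -2.30 at Axin2 and -1.75 at Cnot4 (pseudocount 1). The groups did not overlap at Cnot4, though only narrowly (4.29 in the lowest sham library against 4.17). At the chromosome 13 and 14 regions the other sham libraries were still above the DMM libraries, which were at 0.

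The 1036 other members had medians of 62.7 and 51.0 normalized counts in the second- and third-listed DMM libraries and 62.6, 60.8 and 62.8 in the sham libraries. The sham libraries agreed closely with each other, the highest being a median of 1.12 times the lowest. The first-listed DMM library was at 0 in 97.5% of them. At a sham mean of 20 or more it was at 0 in 52.5% of the higher regions and 51.1% of the lower regions listed in the mutant comparison. The third-listed DMM library was below all sham libraries at 698 of the 1036. The second-listed DMM library was a median of 1.07 times the sham mean and the third-listed 0.773 times, and both were within 1.5-fold of the sham mean at 606 regions. All 161 members that were not lower without the first-listed library belong here.

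This pattern held 67.9% of all members, and examples from genes of cartilage and growth-factor signalling follow. Col2a1, which encodes the main collagen of cartilage, had 0, 76.04 and 34.36 normalized counts after DMM and 67.27, 62.95 and 73.65 in sham. Its second-listed DMM library was above every sham library and the third-listed one below. Runx1, a transcription factor of cartilage and blood, had a region with 0, 68.04 and 30.2 against 56.06, 65.1 and 62.55, with the same disagreement. Smad3, which carries TGF-beta signals to the nucleus, had 0, 52.03 and 59.35 against 61.5, 55.8 and 58.61. Tgfb1 itself had 0, 54.7 and 94.75 against 74.96, 78.69 and 73.82. Ptch1, the hedgehog receptor, had 0, 45.36 and 15.62 against 35.88, 40.77 and 42.72. In these 5 genes the mean of the deeper DMM libraries was 1.01-fold to 1.31-fold below sham, and one of the pair lay within or above the sham range.

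The genes of DNA demethylation and methylation gave a similar picture. Tet3, a relative of Tet1 that makes 5hmC, had 0, 53.36 and 33.32 normalized counts after DMM and 48.69, 48.64 and 51.78 in sham. Dnmt1, which copies methylation at replication, had 0, 74.71 and 45.82 against 67.27, 63.67 and 59.64. The start of Xpo1, the nuclear export receptor gene whose sequence is printed above, had 0, 53.36 and 30.2 against 47.09, 48.64 and 48.19. At each of the 3 the second-listed DMM library was above all sham libraries and the third below them.

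Position was not used by the rule. Of the members, 1016 (66.6%) lay in a RefSeq gene, against 51.0% of all autosomal regions, 50.9% of the lower regions that were listed in the mutant comparison, and 50.7% of the higher regions with a sham mean of 20 or more. For protein-coding genes alone the shares were 59.7% against 41.7%, 43.0% and 39.7%. The share in protein-coding genes was 65.3% in the 1036 other members, 55.4% in the 240 with both deeper DMM libraries below sham, and 41.0% in the 249 read mostly in 1 sham library, the last at the level of all regions. Members also lay nearer to gene starts, with a median distance of 16897 bases against 35618 for all autosomal regions, 31458 for the listed lower regions and 34006.5 for the higher ones. Chromosome 18, with 54 members, has no gene starts in the reference table and is left out of these distances. Within 1 kb of a start lay 11.1% of members, 11.5% of the listed lower regions, 2.32% of the higher and 3.08% of all, so this feature was shared by both sets of lower regions. Regions are not replicates and no test was made. Which exon or intron a region lies in was not analysed here.

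At a gene start, from 250 bases before to 50 after, lay 46 members, 3.13% of the 1471 with start annotation. That share was 5.93% of the listed lower regions, 0.870% of the higher and 0.920% of all. Members were spread over all autosomes, from 41 on chromosome 19 to 133 on chromosome 2. Among regions with a sham mean of 20 or more, members made up 58.6% of 70 on chromosome 19, the highest share. They made up 50.4% of 264 on chromosome 2 and 32.5% of 157 on chromosome 3, the lowest share. The densest megabase was 80 to 81 Mb of chromosome 10, where 10 of the 12 regions with a sham mean of 20 or more were members, among them regions in Apc2, Cirbp, Midn and Sbno2. The megabase before it held 7, in Arid3a, Cfd, Grin3b, Palm and Ptbp1. On chromosome 16, all 7 of the strongly marked regions at 92 to 93 Mb were members, in a stretch with Runx1 and Rcan1.

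A pair of clusters lay in repeated DNA or gene copies, where reads can be split between near-identical sites. Of 7 members at 26 to 27 Mb of chromosome 14, one lay in Cphx2, a homeobox gene with neighbouring copies. The sham levels were 226.6 normalized counts on average at the strongest, and the second- and third-listed DMM libraries there were at 274.82 and 224.91. The 6 members at 3 to 4 Mb of chromosome 9, near the centromere, ran the other way from the pattern of 1 high first-listed sham library. At chr9:3018201-3018400 the sham levels were 10.89, 136.63 and 159.61 and the DMM levels 0, 14.67 and 36.44. The first-listed sham library was the lowest sham library in 5 of these 6.

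The members were placed against 16 gene lists. Of all protein-coding autosomal genes, 853 of 20665 (4.13%) held a member, or 11.1% of the genes that held any listed region. Gene length was not taken into account, and a longer gene can hold more regions. Of 29 cartilage matrix genes, Col2a1 was the 1 with a member. Of 34 matrix proteases and inhibitors, 4 held one: Adamts12 and Adamts14 with both deeper DMM libraries below sham, and Adamts17 and Mmp15 without. Mmp15, a membrane-anchored metalloprotease gene, had 0, 32.02 and 6.25 normalized counts against 26.59, 30.04 and 28.37. Of 22 Hippo pathway genes, 7 (31.8%) held one. Only Dchs1, an atypical cadherin at the top of that pathway, had both deeper DMM libraries below sham, at 61.37 and 34.36 against 82.01, 90.85 and 100.14 in sham, with 62.7 in the first-listed DMM library. Of 55 Wnt pathway genes, 9 held one: the ligand genes Wnt3a, Wnt7b, Wnt9a and Wnt10a, the receptor genes Fzd5, Lrp5 and Ror2, and Axin2 and Tcf7. Fzd5 had 31.35, 18.68 and 10.41 after DMM against 20.5, 50.79 and 44.09, and its first-listed DMM library, at 31.35, was above its lowest sham library.

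The other signalling lists had members in 5 of 46 TGF-beta and BMP genes, 5 of 39 insulin, IGF and mTOR genes, 5 of 31 hypertrophy and mineralisation genes, 4 of 29 chondrogenic transcription factor genes, 2 of 26 Notch genes, 2 of 46 NF-kB and inflammatory genes and 2 of 21 genes of the methylation machinery. Lists of other cell types were counted as well, since the dissected tissue can hold them. Members lay in 6 of 20 endothelial marker genes (Cdh5, Eng, Flt1, Mmrn2, Pecam1 and Vwf), 3 of 31 haematopoietic, 1 of 28 skeletal muscle (Ckm), 1 of 20 fibroblast and synovial lining (Col5a1) and 0 of 15 adipocyte marker genes. The assay reads a DNA mark and gives no expression level, so the tissue label itself could not be checked against its marker genes. A part of other cells in these differences was not tested.

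The comparison of MUT DMM with wild-type sham knees gives the same places in other libraries, but it uses the same sham libraries as the rule, so its values are set beside the others without a test. It listed 599 of the 1525 members (39.3%), of which 514 were lower in MUT DMM and 85 higher. It listed 8.03% of all autosomal regions, 31.3% of the higher regions with a sham mean of 20 or more and 33.8% of the lower regions listed in the mutant comparison. The members' higher share rested on the 249 read mostly in 1 sham library, all of them listed and all lower. Of the members with both deeper wild-type DMM libraries below sham 31.25% were listed, and of the others 26.5%. Neither share was above that of the higher regions. Of all 67366 regions listed there, 57.1% were lower (57.0% with an adjusted p under 0.05), and 39.0% of the 23793 with a sham mean of 20 or more. Levels in that comparison are on another scale. There 1 read of the sham libraries, in listed order, is worth 0.53, 1.16 and 0.277 normalized counts, against 0.32, 0.715 and 0.171 above. A sham mean of 20 there is thus a lower bar than the one that chose the members. The 357 regions of the listed lower set found there were lower in 23.2%. That set was removed from the members for differing between the mutant and the wild type after DMM, so the rule itself bears on how these shares compare. Taking only members that shared at least 50% of their length with a region of that table, 548 remained, and 477 were lower.

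By read pattern, all 248 of these members read mostly in 1 sham library were lower in MUT DMM, with a median of 3.31 normalized counts against a sham mean of 62.7. The sham medians in that table were 164, 10.4 and 10.4, so the same library was again the high one. Of the 65 with both deeper wild-type DMM libraries below sham, 63 were lower in MUT DMM. Over all 65 the median was 31.7 in MUT DMM against 76.4 in sham. Of the 235 others, 166 were lower and 69 higher. Over all 235 the median was 82.3 in MUT DMM against 117 in sham. MUT DMM libraries lay below all sham libraries at 306 of the 548, against 50.1% of the whole table. The shallower MUT DMM library, where 1 read is worth 9.45 normalized counts, was at 0 in 211 of the 548, and the deeper at 0 in 8.

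**Figure D4:**
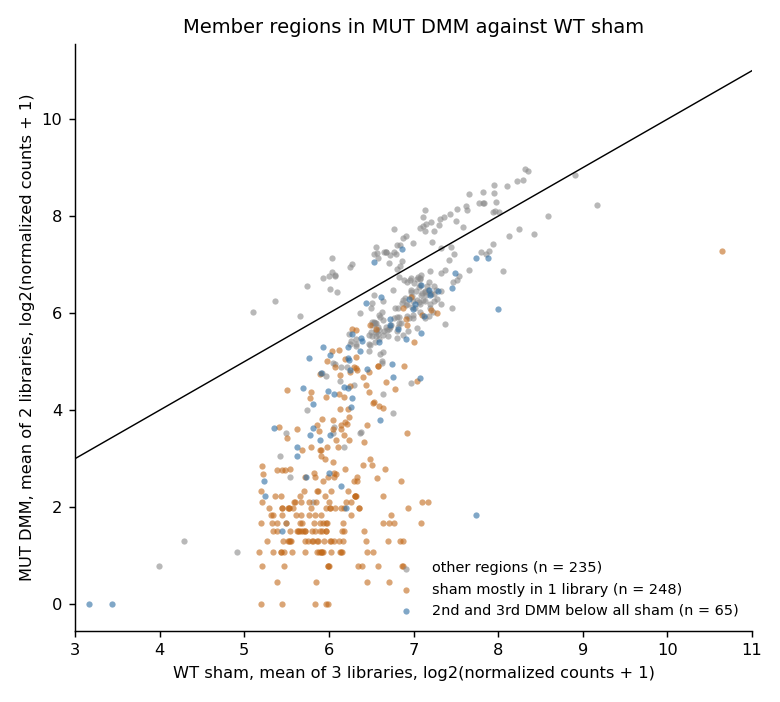
Mean level in the 2 distinct MUT DMM libraries against the mean of the 3 wild-type sham libraries at 548 members, as log2(normalized counts + 1) in the table of that comparison; the line marks equal levels. The 248 members read mostly in 1 sham library all lie below the line, while 69 of the 235 other members lie on or above it.

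Named members differed in that table. At chr18:15981101 the deeper MUT DMM library had 5.15 normalized counts and the shallower 0, against 148.47, 142.4 and 346.47 in sham, so this region was near 0 in MUT DMM as in wild-type DMM. At the Cdh5 region the MUT DMM levels were 16.94 and 0 against 90.15, 23.15 and 31.62. At the third Ahnak2 region they were 105.3 and 28.34 against 141.58, 197.97 and 425.53, with both MUT DMM values below all sham values. The 28.34 was 3 reads, and the authors' adjusted p of that comparison was 0.141 there. At Col2a1 the deeper library had 100.88, close to the sham levels of 111.36, 101.88 and 120.11, and the shallower 18.89, which is 2 reads. At Smad3 they were 67.74 and 18.89 against 101.81, 90.3 and 95.15. The last Igh region, at chr12:115685301-115685540, went the other way: one MUT DMM library, at 220.9, was within the sham range of 218.87 to 236.17 and the other, at 396.78, was above it. The Dtx2, Ulk1, Mmrn2, Mef2d, Adamts12 and Adamts14 regions had no listed region covering at least 50% of them in that table.

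The 8 members of highest sham level were led by the 2100-base region at Gm40237 (chr4:118546761-118548860). It had 0, 158.75 and 158.27 normalized counts after DMM and 2431.35, 216.03 and 254.8 in sham. The first-listed sham library was far above the others, which were themselves above all DMM libraries. At chr8:123600621-123600980 and chr8:123619281-123619560, a short distance apart, the reads were almost the same: 1908, 531 and 2610 in sham at the first and 1906, 524 and 2601 at the second. Such agreement means that these 2 members may be copies of one sequence counted at both places, and they are uncertain as separate regions. Both had reads in the first-listed DMM library (21 each), and levels of 329.18, 377.54 and 313.42 against 611.2, 379.85 and 446.02 at the first. A region at chr2:32473641-32473840 also had reads in all libraries, at 172.43, 192.1 and 158.27 against 306.88, 227.48 and 278.55, with all DMM values below all sham values. So did chr4:60181681-60181960, whose nearest gene start is that of Mup2, at 203.78, 264.14 and 187.43 against 501.33, 284.71 and 277.87. At these last 4 the mean turned higher after DMM when libraries were scaled by recovered reads (log2 0.40 to 0.64). At chr14:114098321-114098580, in contrast, the DMM values were 0, 340.18 and 264.48 against 317.13, 285.42 and 305.72.

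At the threshold itself the members just inside were read mostly in the first-listed sham library. The lowest had a sham mean of 20.5 at chr1:88019981-88020180, with sham levels of 56.38, 3.58 and 1.54 and DMM levels of 0, 1.33 and 3.12. The next, in Wdr64, had 20.6, with 56.38, 3.58 and 1.71 against 0, 0 and 3.12. Just outside, a region in Brf2 with a sham mean of 19.9 had sham levels of 52.54, 5.01 and 2.22, and one at chr17:53940021-53940280 had 51.57, 5.72 and 2.56. The regions on both sides of the threshold were alike.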

How the data were processed

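Per the submitters' processing notes, reads were demultiplexed with bcl2fastq 2.20.0, trimmed with Trim Galore 0.5.0 and aligned to mm10 with HISAT2 2.1.0, and SAMtools and bedtools were used. The normalization and the test behind the tables are not given in the sources used here. Each deposited table lists regions with group means (signal: normalized counts), the joined per-library values, and the authors' region p-value and adjusted p. Nothing in the files ties a joined value to a replicate, and listed place names a library here. The low values were whole multiples of 1 step per library (tolerance 0.02), which gave the reads. The tables list only regions the authors selected by p-value, so no test was made again on them. Regions were selected and joined by shared bases in Python 3.11.15 (pandas 2.3.3, numpy 2.4.6); the selection was tested on simulated regions. Gene bounds and starts are RefSeq GRCm38.p6; of 499 list genes 489 matched an autosomal protein-coding gene. The members and gene lists were chosen with earlier results of these data known. Named are the 8 members each of smallest adjusted p (ties by p, then position), largest fall and highest sham level, members of genes with 3 or more, at most 4 per gene list, and 2 on each side of the threshold. Alternatives were other thresholds, overlaps, pseudocounts, scaling by recovered reads and leaving out each library. Sham knees of the mutant and the unglucosylated control (4 samples) were not analysed here. Intervals cover counting error only, since reads carry no molecular identifiers.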

Additional observations from a re-analysis of the deposited data

How the results depend on the processing

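The number of members stayed between 1294 and 1621 under sham minimums of 15 and 30, other overlap rules, adjusted p limits and a minimum of 10 reads. The median log2 fold change was -0.78 and ranged from -1.47 to -0.21 when 1 library was left out. It was -1.54 with each library scaled by its recovered reads instead of as the authors did. Those totals count only reads in listed regions, so the scaled values also depend on which regions the authors selected. Regions with a sham mean under 20 held 662845 of the 869378 autosomal reads of the third-listed DMM library. They held 623301 of 1924776 in the third-listed sham library and 644 of 3968 in the near-empty DMM library. The number of members whose groups did not overlap was 232, ranged from 266 to 943 with 1 library left out (266 without the first-listed, 943 without the second-listed and 594 without the third-listed DMM library), and was 1184 with that read scaling. Between 1364 and 1525 were lower when a library was left out, and 1412 with read scaling. The share lower in MUT DMM was 77.8% to 87.3%, the lowest without the first-listed sham library. Of 91 named members, 14 were higher after DMM with read scaling, where 1 read of the near-empty library weighs most: log2 0.76 at Adamts14, 0.62 at Ulk1, 0.59 at Mef2d, 0.53 at Adamts12, 0.45 at Mmrn2, 0.54 and 0.21 at 2 Ahnak2 regions, 0.68 at an Igh region, 0.74 and 0.15 at 2 Cpne5 regions, 0.50 at chr2:32473641, 0.40 at chr4:60181681, and 0.63 and 0.64 at the chromosome 8 pair. At 1 Ndst1 region the value ranged from -1.08 to 0.048 with 1 library left out, the last without the first-listed DMM library. Without the first-listed sham library 8 named members moved, to between -2.60 and -0.47. The 70% and 90% shares were added after the data were seen. No paired analysis was possible because the columns carry no replicate numbers. Depth limits the first-listed DMM library, where a 0 allows up to 47.0 normalized counts.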

Other observations

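Most other genes with 3 or more members held regions of the remaining pattern, where the deeper DMM libraries were not both below sham. Arhgap23, which encodes a GTPase-activating protein, had 3 members, and at the first of them the levels were 0, 102.72 and 91.63 normalized counts after DMM and 96.42, 103.01 and 92.79 in sham. Foxn3, a forkhead repressor gene, had 3, with 0, 73.37 and 91.63 against 89.69, 82.98 and 79.81 at chr12:99196721-99196940. Atxn7l1 also had 3, and at chr12:33277861-33278100 the levels were 0, 69.37 and 46.86 against 60.86, 54.37 and 60.49. Ndst1, which encodes an enzyme that modifies heparan sulfate chains, had 4. At 3 of these the second- and third-listed DMM libraries were near the sham level, and at the fourth, chr18:60748281-60748500, the levels were 0, 24.01 and 8.33 against 25.31, 42.92 and 83.05. A further 67 genes held 2 members each.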
